A study of Mus musculus with 16 samples.

Results

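Pcp4l1 and Adam28 are 2 of the 31053 genes counted in single cells from the kidneys of diabetic and control mice. They were found by their symbols and described in every cell class, genotype and age. They were chosen because earlier results from these same files gave both as lower in mesangial cells of diabetic mice, so their levels in mesangial cells of the 2 genotypes are given as a description with no test. Tests are given only for other contrasts than that one. These are age, sex, the sex difference of the diabetic effect, and the diabetic against control difference in other cell classes. The age and sex contrasts in mesangial cells share values with the contrast that chose the genes, so they are not independent of the choice.

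Pcp4l1 (Purkinje cell protein 4-like 1) encodes a small intracellular protein with an IQ motif, the type of sequence to which calmodulin, the main calcium sensor of the cell, binds. It is a close relative of Pcp4, a regulator of calmodulin, and an acidic stretch beside its motif has been described as holding back calmodulin binding. Adam28 encodes a disintegrin and metalloprotease, a membrane-anchored enzyme that cuts other proteins at the cell surface. Its described substrates and partners include insulin-like growth factor binding protein 3, connective tissue growth factor and the integrin alpha4 beta1. Mesangial cells are the contractile cells between the capillary loops of the glomerulus. They make the matrix that expands in diabetic nephropathy (DN).

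The study profiled 16 mice in 16 libraries, 1 mouse per library. BTBR ob/ob mice, which lack functional leptin and become obese and diabetic (DN mice), were compared with BTBR +/+ mice (control mice, also called BTBR WT) at 6 and 12 weeks of age, with 2 females and 2 males per genotype and age. All mice of both genotypes carried the fluorescent reporter allele tm4(ACTB-tdTomato,-EGFP)Luo at Gt(ROSA)26Sor and a podocyte-driven Cre transgene, so the controls were not free of transgenes. Both kidneys were taken, the papilla was removed and the proximal tubule (PT) was partly depleted. Leptin itself was read at 0 to 7 UMIs (unique molecular identifiers, each standing for 1 captured RNA molecule) per library, which does not check the labelled genotypes.

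The deposited tables held 116439 barcodes, of which 86139 were kept. The labels call the samples glomeruli cells, but most kept cells carried tubular markers. By markers, 16 classes were named, and 15301 kept cells in 15 of 52 clusters had no name. Library totals ran from 10510855 to 125551519 UMIs. The 4 female replicate 1 libraries, 1 for each genotype and age, had the lowest totals, with at most 21728793, and used another list of barcodes than the other 12. They shared 0 to 3 barcodes with any library of the other list, against 7 to 55 between libraries of the same list.

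The sequences below show what sets each gene's product apart. Pcp4l1 (ENSMUSG00000038370) lies on the minus strand of chromosome 1 at chr1:171173262-171196268 of GRCm38 (mm10), has 1 annotated transcript of 3 exons and 1577 bases, and encodes 68 residues. Its whole coding sequence, joined from 3 exons between 171174383 and 171196019, is given with the codons of the IQ motif, coding bases 154 to 186, in capitals.
Pcp4l1 coding sequence: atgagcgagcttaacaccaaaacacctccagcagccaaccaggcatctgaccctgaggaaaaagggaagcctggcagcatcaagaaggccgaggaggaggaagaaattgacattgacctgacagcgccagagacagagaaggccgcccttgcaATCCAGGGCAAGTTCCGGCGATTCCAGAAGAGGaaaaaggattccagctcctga
Adam28 (ENSMUSG00000014725) lies on the minus strand of chromosome 14 at chr14:68606027-68655842 and has 6 annotated transcripts, 4 of them coding, with up to 23 exons. Its longest form encodes 793 residues. The stretch of its coding sequence that holds the zinc-binding motif of the metalloprotease, coding bases 991 to 1089 in a single exon at chr14:68633134-68633232, is given with the motif's codons, bases 1024 to 1056, in capitals.
Adam28 coding stretch: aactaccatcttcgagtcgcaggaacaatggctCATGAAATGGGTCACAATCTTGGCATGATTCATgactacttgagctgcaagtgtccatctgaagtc
No other annotated gene overlaps either of them. The last 500 bases of the Adam28 transcripts, where 3' reads fall, share stretches of at least 90 bases at 90% identity or more with transcripts of 877 other genes, the longest being 203 bases. Its counts are therefore less certain than those of Pcp4l1, whose transcript end shares none.

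The 250 bases upstream of the Pcp4l1 start, on the minus strand at chr1:171196269-171196518 (RefSeq, GRCm38.p6), are shown with the motif ATTGG in capitals.
Pcp4l1 upstream: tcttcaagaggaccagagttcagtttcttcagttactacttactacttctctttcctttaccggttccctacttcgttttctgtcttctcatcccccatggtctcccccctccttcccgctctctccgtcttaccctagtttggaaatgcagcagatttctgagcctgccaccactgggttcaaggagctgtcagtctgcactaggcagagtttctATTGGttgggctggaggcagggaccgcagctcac
ATTGG lay 34 bases before the start and was present, on either strand, in 37.4% of 32851 promoter windows of 300 bases (250 before and 50 after the start). TATAAA, present in 13.6% of the windows, began at the annotated start itself, a place it had in 12 promoters. The CArG box bound by serum response factor (1.63% of windows), AGATAA (11.2%) and CATTCC (14.7%) did not occur in this window. These matches describe letters, not bound sites, and no promoter of Adam28 was searched.

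In mesangial-like cells of control mice Pcp4l1 was among the well-detected genes, and it stood lower in every DN library at both ages. The class held 4061 cells in 2 clusters, with all 8 of its markers, among them Itga8, Gata3 and Adamts5. UMIs were summed over these cells per library and scaled to UMIs per 1000000 UMIs of the class in that library (CPM). In control mice at 6 weeks the females stood at 467 and 478 CPM and the males at 709 and 623 CPM. In DN mice at 6 weeks the females stood at 208 and 227 CPM and the males at 279 and 158 CPM. Every control library was above every DN library, the nearest values being 467 and 279 CPM. At 12 weeks the control females stood at 466 and 598 CPM and the control males at 744 and 676 CPM. The DN females at 12 weeks stood at 199 and 192 CPM and the DN males at 220 and 227 CPM. The groups again did not overlap, and the 4 DN libraries lay close together. The group means were 569 ± 117 CPM in control and 218 ± 49.9 CPM in DN mice at 6 weeks, and 621 ± 119 and 210 ± 16.5 CPM at 12 weeks (SD, n = 4 each). The fitted difference, DN minus control, was -1.34 ± 0.20 on the log2 scale at 6 weeks and -1.51 ± 0.19 at 12 weeks (edgeR, SE).

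Adam28 was a sparse gene, and the same cells of DN mice had almost no UMIs of it at 12 weeks. In control mice at 6 weeks the females had 1 and 7 UMIs (3.31 and 7.54 CPM) and the males 16 and 7 UMIs (17.4 and 17.5 CPM). In DN mice at 6 weeks the females had 1 and 0 UMIs (3.10 CPM and none, where 3 counts would be 4.54 CPM) and the males 7 and 5 UMIs (3.34 and 2.16 CPM). The groups overlapped at 6 weeks, because the lowest control library, at 3.31 CPM from a single UMI, lay below the highest DN library at 3.34 CPM. At 12 weeks the control females had 5 and 29 UMIs (17.3 and 19.9 CPM) and the control males 35 and 37 UMIs (19.4 and 31.8 CPM). The DN females at 12 weeks had 0 and 1 UMIs (none, where 3 counts would be 7.02 CPM, and 0.391 CPM) and the DN males 3 and 5 UMIs (0.704 and 1.87 CPM). At 12 weeks no DN library reached the lowest control library. Pooled over libraries, Adam28 was at 12.2 CPM in control and 2.41 CPM in DN mice at 6 weeks, with exact Poisson 95% intervals of 8.26 to 17.3 and 1.28 to 4.12 CPM. At 12 weeks the pooled levels were 22.5 CPM (18.4 to 27.2) and 0.908 CPM (0.415 to 1.72). These intervals cover counting error only. The fitted log2 differences were -2.58 ± 0.52 and -4.54 ± 0.44 (SE), values that depend on the prior count at such low levels. Without DN male 12 weeks replicate 2, the DN library with the most Adam28 at that age, the latter was -5.12.

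**Figure D1:**
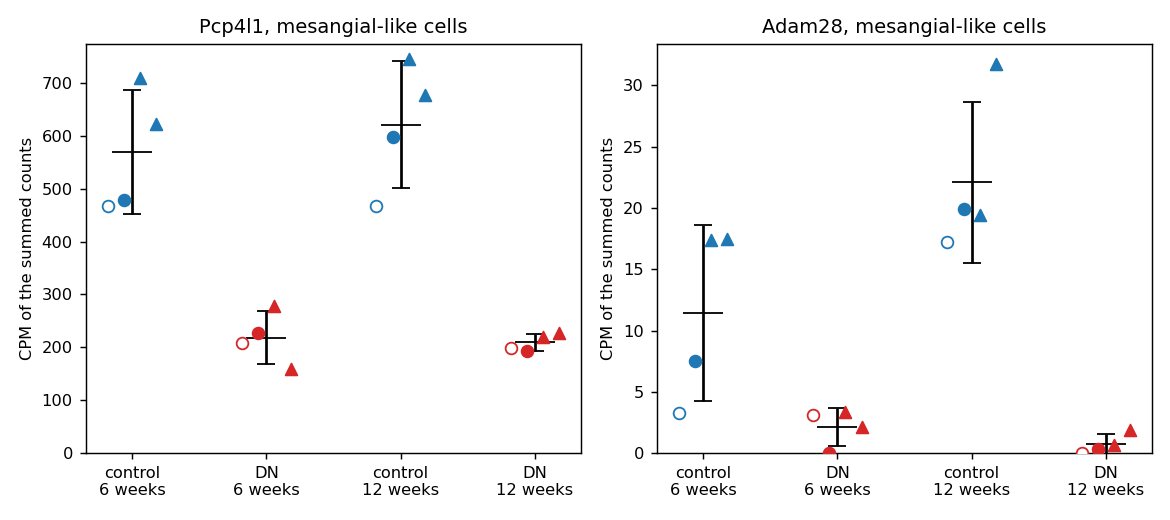
Level of Pcp4l1 and Adam28 in mesangial-like cells, in CPM, with 1 point per library for control and DN mice at 6 and 12 weeks. Circles are females, triangles males, open symbols the libraries of the smaller barcode list, and bars the mean ± SD of 4 libraries. DN libraries of Pcp4l1 sit at 158 to 279 CPM, all below the control libraries at 466 to 744 CPM, and Adam28 overlaps at 6 weeks but not at 12.

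Among all genes tested in these cells, 0.0833% were called lower and 0.187% higher in DN mice at 6 weeks, and 0.885% and 2.12% at 12 weeks (edgeR's quasi-likelihood test, Benjamini-Hochberg adjusted p under 0.05, 9607 genes). Every control library lay above every DN library for 1.6% of the genes at 6 weeks and 3.93% at 12 weeks. By fitted difference, where rank 1 is the lowest, Adam28 ranked 5 at 6 weeks and 1 at 12 weeks, and Pcp4l1 ranked 42 and 58. Since these contrasts chose both genes, nothing further is read from the ranks. With a term for replicate number within sex and age, the fitted differences were -1.38 ± 0.13 and -1.53 ± 0.13 for Pcp4l1 and -2.54 ± 0.51 and -4.50 ± 0.40 for Adam28, while the shares called over 9946 genes were 1.01% lower and 2.85% higher at 6 weeks and 4.44% and 7.63% at 12 weeks.

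Markers of other cell types were also read in the mesangial-like sums. The sums of the smooth muscle and renin markers overlapped between the genotypes at 6 weeks and were higher in every DN library at 12 weeks, with no test, while those of the PT, glomerular endothelial and immune markers overlapped at both ages. The summed mesangial markers were at 15598 to 18930 CPM over all 16 libraries. The 8 smooth muscle and renin markers, none of them at 0, summed to 209 to 810 CPM in control and 801 to 4694 CPM in DN mice at 6 weeks, and to 298 to 422 and 695 to 1690 CPM at 12 weeks. Pcp4l1 itself was higher in smooth muscle and renin-like cells than in mesangial-like cells in each library. The 8 PT markers summed to 86.1 to 2786 CPM in control and 127 to 682 CPM in DN mice at 6 weeks, and to 423 to 2477 and 150 to 982 CPM at 12 weeks. The 7 glomerular endothelial markers ran from 999 to 1578 CPM in control and from 1309 to 1877 CPM in DN mice. The 8 immune markers never summed to more than 10.4 CPM, with 1 of them at 0. The part of these markers in the Pcp4l1 and Adam28 differences was not tested. Within the 12 libraries of the larger barcode list the differences were -1.40 ± 0.20 and -1.61 ± 0.20 for Pcp4l1 and -2.75 ± 0.53 and -4.50 ± 0.45 for Adam28. When cells were taken by at least 3 of the 8 mesangial markers rather than by cluster, 5211 cells passed, 1228 of them from smooth muscle and renin-like clusters, and the Pcp4l1 difference at 6 weeks was -0.79 ± 0.23.

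The share of cells with a Pcp4l1 UMI describes the same difference on another scale and adds no independent support. Of mesangial-like cells, 70.9% in control mice and 52.5% in DN mice had at least 1 Pcp4l1 UMI, although the DN cells were deeper, with a median of 4693 UMIs against 3472. When each cell was thinned to 1000 UMIs, the share was 37.8% ± 6.59 in control and 16.1% ± 6.68 in DN mice at 6 weeks, and 44.4% ± 5.74 and 17.8% ± 1.97 at 12 weeks (SD over 4 libraries). The thinned shares of the control libraries ran from 33.8% to 50.2% and those of the DN libraries from 10.5% to 25.1%, with no overlap. How many of all genes separate in this way was not computed for thinned cells. Cells with 5 or more Pcp4l1 UMIs made up 20.0% of control and 8.44% of DN cells at 6 weeks, and 23.3% and 7.11% at 12 weeks, before thinning. In PT-like cells, which should lack the gene, the mean thinned share was at most 0.0832% in any group, so the mesangial shares lay far above this background (median depths of 4106 UMIs in mesangial-like and 8463 in PT-like cells before thinning). Thinning left out 177 control and 293 DN mesangial-like cells with fewer than 1000 UMIs.

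**Figure D2:**
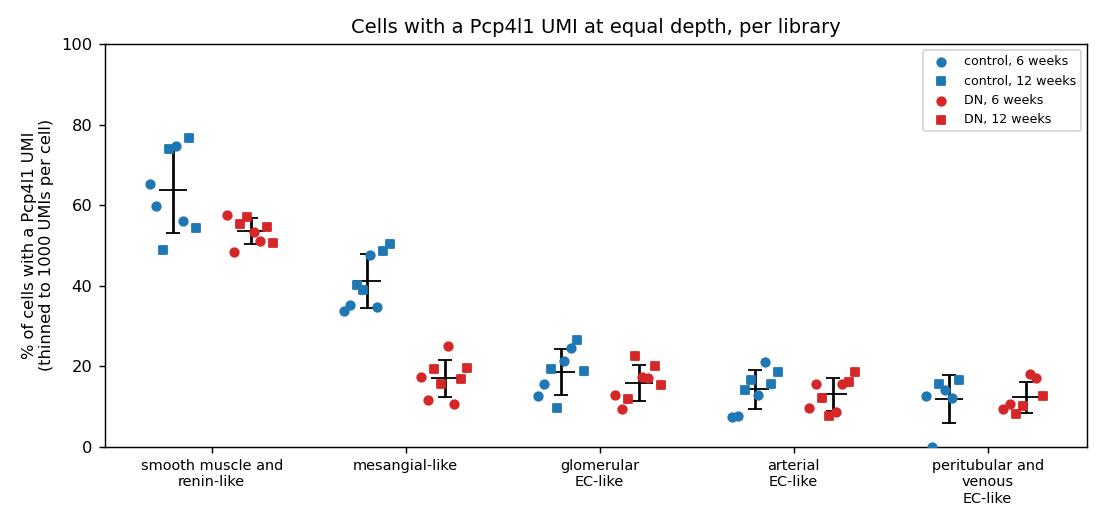
Percent of cells with at least 1 Pcp4l1 UMI after thinning every cell to 1000 UMIs, for 5 classes, with 1 point per library and bars for the mean ± SD of the libraries. The mesangial-like class shows 33.8% to 50.2% in control against 10.5% to 25.1% in DN libraries, and smooth muscle and renin-like cells have the highest shares.

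The class held a deeper and a shallow cluster. In the deeper cluster the pooled Pcp4l1 level was 588 and 681 CPM in control mice at 6 and 12 weeks and 218 and 217 CPM in DN mice. In the shallow cluster, with a median of 854 to 926 UMIs per cell, it was 310 and 270 CPM in control and 175 and 126 CPM in DN mice. By library, the deeper cluster stood at 469 to 751 CPM in control and 160 to 279 CPM in DN mice, with no overlap. How many of all genes separate in this way was not computed for single clusters. The genotypes overlapped in the shallow cluster, at 84.9 to 627 CPM in control and 58.5 to 296 CPM in DN mice. The shallow cluster, with few UMIs in all, held 6 of the Adam28 UMIs, all from control mice. Its pooled Adam28 level in control mice was 22.1 CPM at 6 weeks (1 UMI) and 26.4 CPM at 12 weeks (5 UMIs). The deeper cluster stood at 12.0 and 22.3 CPM in control mice, so the level was not confined to the deeper cells. Adam28 was read in 112 of 1588 control and 19 of 2473 DN cells. Of the 112 control cells, 83.9% also had Pcp4l1, against 70.9% of all control mesangial-like cells, and of the 19 DN cells 78.9%, against 52.5%. The median depths were 5286 against 3472 UMIs in control and 4665 against 4693 UMIs in DN mice, and the part of depth in this overlap was not tested.

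Age did not change either gene past the test. From 6 to 12 weeks Pcp4l1 differed by 0.09 ± 0.19 in control and by -0.07 ± 0.19 in DN mice on the log2 scale (SE, adjusted p = 1 for both, edgeR). Adam28 was higher at 12 weeks in control mice by 1.00 ± 0.39 with an unadjusted p of 0.0197 and an adjusted p of 1, and differed by -0.96 ± 0.65 in DN mice (adjusted p = 1, edgeR). No gene was called in either age contrast (0% of 9607), with 279 genes in control and 251 in DN mice at an unadjusted p under 0.05. The mean of Adam28 was 11.4 ± 7.16 CPM at 6 and 22.1 ± 6.55 CPM at 12 weeks in control mice, and 2.15 ± 1.52 and 0.742 ± 0.807 CPM in DN mice (SD, n = 4). Whether the 2 age differences differed from each other was not tested. Both age contrasts reuse the mesangial-like values that chose the genes, so they are not independent of the choice. Adam28 reached the level of the filter on low counts (9.56 CPM) in 6 control and 0 DN libraries. Its age values are therefore read as a description.

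In the fit over both genotypes, females had somewhat lower values of both genes, without passing the test. In DN mice at 6 weeks both female Pcp4l1 levels lay between the male levels. Female minus male was -0.25 ± 0.14 for Pcp4l1 (adjusted p = 0.506) and -0.98 ± 0.35 for Adam28 (unadjusted p = 0.0129, adjusted p = 0.328, edgeR), where 0.135% of all genes were called. Each replicate 1 female library belonged to the smaller barcode list, so that sex and barcode list were not balanced. In mesangial-like cells these 4 female libraries held 289617 to 427346 UMIs, and of the male libraries control male 6 weeks replicate 2 was as low, with 399896. With a term for the barcode list the values were -0.24 ± 0.14 and -0.94 ± 0.39. The DN difference of females minus that of males was 0.34 ± 0.29 for Pcp4l1, with a 95% interval of -0.23 to 0.90, and -0.57 ± 0.86 for Adam28, with an interval of -2.25 to 1.12 (adjusted p = 1.00 for both, edgeR). Within the 12 libraries of the larger barcode list the values were 0.23 ± 0.33 for Pcp4l1 and -2.65 ± 1.68 for Adam28, the latter outside the interval over all libraries. That list leaves 1 female library per genotype and age. The DN female ones held 0 Adam28 UMIs at 6 weeks and 1 at 12 weeks in mesangial-like cells, so the Adam28 value rests on near-empty libraries. No gene was called for this difference (0% of 9946, with 173 at an unadjusted p under 0.05). Both sex contrasts reuse the mesangial-like values that chose the genes. Adam28 reached the level of the filter on low counts in 6 control and 0 DN libraries, so its sex values are read as a description. The 95% intervals of fitted differences, here and below, are approximate. They come from the estimate and its SE, not from the test.

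Across the kidney, Pcp4l1 was read mainly in contractile and endothelial cells. Of its 34188 UMIs in kept cells, 34.2% lay in smooth muscle and renin-like cells, 23.1% in mesangial-like, 17.3% in glomerular endothelial (gEC)-like, 7.47% in arterial EC-like and 14.8% in unnamed cells. The order of levels in control mice, pooled over ages, was smooth muscle and renin-like cells at 1114 CPM (95% interval 1086 to 1141), mesangial-like at 636 (618 to 655), gEC-like at 248 (240 to 257), peritubular and venous EC-like at 160 (131 to 193) and arterial EC-like at 153 (145 to 162) CPM. The last 2 of these overlapped in their intervals and had the other order by the mean over libraries, with 161 ± 42.5 CPM in arterial EC-like (n = 8) and 149 ± 30.9 CPM in peritubular and venous EC-like cells (n = 6), so no order between them is given. Immune-like and mitotic cells followed at 22.5 and 16.6 CPM and podocyte-like cells, the epithelial cells of the glomerulus, at 5.80 CPM. Every tubular class was below 1 CPM, so podocytes and tubules stood well below the mesangium. In DN mice the mesangial-like level of 215 CPM (208 to 222) came close to the gEC-like level of 188 CPM (181 to 195). All 95% intervals in this paragraph are exact Poisson intervals of pooled counts, which cover counting error only and not the spread between mice. In each control library the smooth muscle and renin-like level was above the mesangial-like one, and the gEC-like level was below it.

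**Figure D3:**
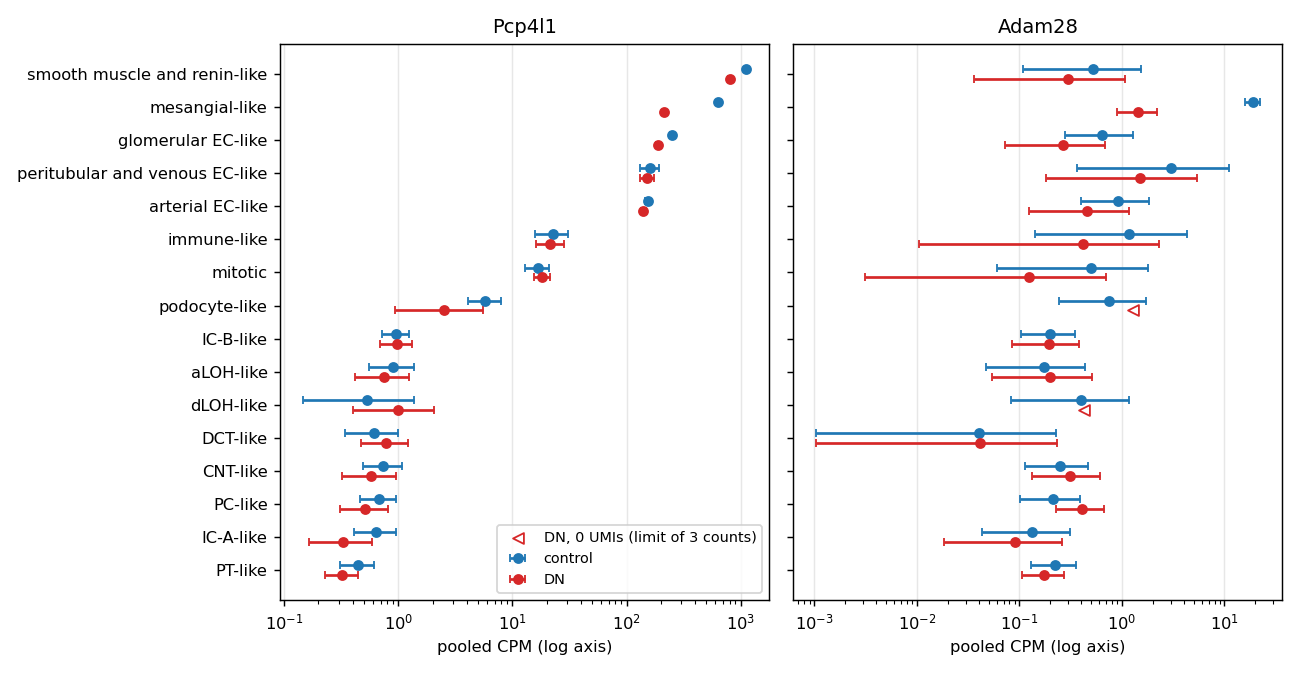
Pooled level of Pcp4l1 and Adam28 in 16 cell classes, in CPM on a log axis, with exact Poisson 95% intervals, for control and DN mice of both ages together. The intervals cover counting error only. Open triangles mark classes with 0 UMIs at the level of 3 counts. Pcp4l1 is highest in smooth muscle and renin-like cells (1114 CPM in control mice), and Adam28 stands out in control mesangial-like cells at 18.9 CPM.

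Set against other classes of the same library, the mesangial-like level took another place in DN mice. The smooth muscle and renin-like level was 1.64 to 2.10 times the mesangial-like level in the 8 control libraries and 2.85 to 5.07 times in the 8 DN libraries. The gEC-like level was 0.275 to 0.582 of the mesangial-like level in control libraries, never above it, and 0.541 to 1.42 of it in DN libraries, above it in 4 of 8. These ratios include the mesangial difference that chose the gene and are a description.

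Adam28 was concentrated in mesangial-like cells. They held 159 of its 404 UMIs (39.4%) with 2.68% of all UMIs. Another 81 lay in unnamed cells and 37 in PT-like cells. In control mice the pooled level was 18.9 CPM (15.8 to 22.3) in mesangial-like cells against 3.04 CPM (0.368 to 10.99, from 2 UMIs) in peritubular and venous EC-like, 0.923 in arterial EC-like, 0.743 in podocyte-like, 0.646 in gEC-like and 0.525 in smooth muscle and renin-like cells. Tubular classes stood between 0.0406 and 0.399 CPM in control mice. In DN mice the mesangial-like level of 1.44 CPM (0.901 to 2.18) overlapped in its interval with several other classes. An unnamed cluster of 748 cells with podocyte and fibroblast markers held Adam28 at 3.85 CPM in control and 7.51 CPM in DN mice, from 8 UMIs each in 4 and 5 cells, with median depths of 1123 and 1980 UMIs. The smooth muscle and renin-like cells, with the most Pcp4l1, had only 5 Adam28 UMIs in all, so the classes that carried the 2 genes differed.

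Pcp4l1 could be tested in smooth muscle and renin-like, gEC-like, arterial EC-like, immune-like, mitotic and, at 6 weeks, peritubular and venous EC-like cells, and in none of these did its DN difference pass without the replicate block. In podocyte-like and tubular classes it did not pass the filter on low counts. In smooth muscle and renin-like cells the control libraries at 6 weeks stood at 914, 952, 1162 and 1104 CPM and the DN libraries at 954, 647, 809 and 804 CPM, overlapping. At 12 weeks the control libraries stood at 859, 1255, 1414 and 1189 CPM and the DN libraries at 761, 889, 819 and 931 CPM, where 2 DN libraries were above the lowest control. The fitted difference was -0.33 ± 0.19 at 6 weeks (adjusted p = 1.00) and -0.41 ± 0.19 at 12 weeks (unadjusted p = 0.0453, adjusted p = 0.660, edgeR), where 0.0356% and 0.214% of all genes were called. With the replicate block the 12-week difference of -0.40 ± 0.12 passed the test (adjusted p = 0.0464, edgeR), in a fit that called 3.51% of all genes, and the 6-week difference of -0.37 ± 0.11 did not (adjusted p = 0.145, edgeR). The 95% interval at 12 weeks without the block ran from -0.79 to -0.03.

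In gEC-like cells, the capillary cells beside the mesangium, Pcp4l1 stood at 200 ± 74.3 CPM in control and 157 ± 39.4 CPM in DN mice at 6 weeks, and at 276 ± 15.99 and 221 ± 46.3 CPM at 12 weeks (SD, n = 4). The fitted differences were -0.33 ± 0.17 and -0.36 ± 0.17, with adjusted p = 1.00 for both (edgeR), where 0.0104% and 0% of genes were called. With the replicate block they were -0.34 ± 0.11 and -0.39 ± 0.12 and the adjusted p-values 0.157 and 0.0890 (edgeR). In arterial EC-like cells the differences were 0.09 ± 0.23 and -0.06 ± 0.24, with intervals of -0.37 to 0.54 and -0.53 to 0.42 (adjusted p = 1.00, edgeR), where 0% and 0.0109% of genes were called. Within that class, 1 cluster carried Pcp4l1 at 177 to 255 CPM over the 4 groups of age and genotype and the other at 11.8 to 23.9 CPM. The cluster with the lower level passed 7 arterial EC markers, with Fbln2 and Fbln5 among its leading genes. The cluster with the higher level passed 6, with Sox17 among its leading genes, so the class level comes mostly from that cluster. Peritubular and venous EC-like cells could be tested at 6 weeks only and gave 0.09 ± 0.38 (adjusted p = 1.00, edgeR), where 0% of genes were called.

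Immune-like cells gave -0.01 ± 0.80 at 6 weeks and -1.38 ± 1.29 at 12 weeks, and mitotic cells 0.10 ± 0.89 and -0.46 ± 0.88 (adjusted p = 1.00 for each, edgeR), where 0% of genes were called. Both classes had few Pcp4l1 UMIs and intervals wide enough to hold the mesangial difference. The mitotic class mixed lineages. Its smaller cluster, of 91 cells, had mesangial as its second class by markers, with 31.9% of its cells from DN male 6 weeks replicate 1. The part of such cells in the mitotic values was not tested. Adam28 passed the filter on low counts in mesangial-like cells alone, where it reached 9.56 CPM in 6 control and 0 DN libraries, so no other class has a test of it. Whether the DN difference of Pcp4l1 itself differed between classes was not tested, since the mesangial one chose the gene.

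**Figure D4:**
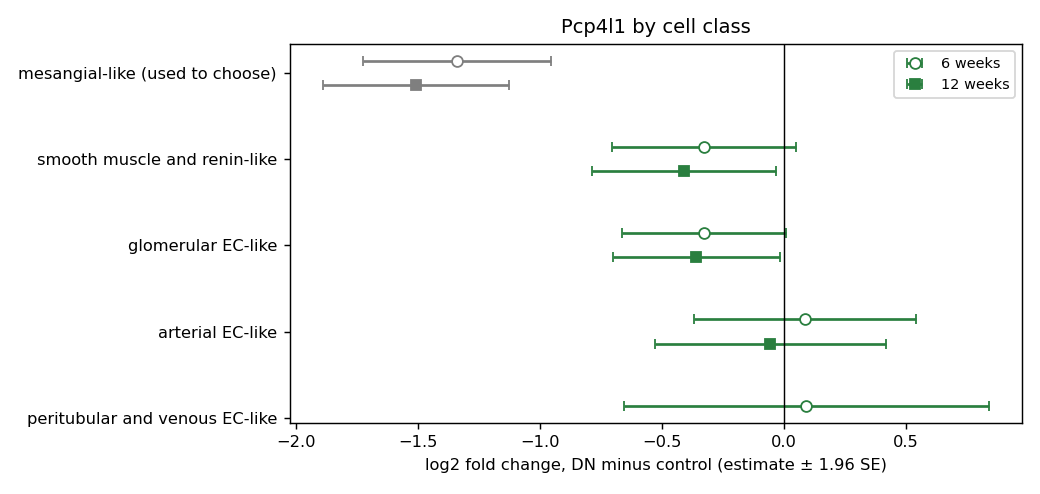
Log2 fold change of Pcp4l1, DN minus control, in 5 classes at 6 and 12 weeks (peritubular and venous EC-like at 6 weeks only, with immune-like and mitotic cells not drawn). Points are the estimate. Bars are approximate 95% intervals taken from the estimate and its SE, not from the test. The mesangial-like values of -1.34 and -1.51, which chose the gene, lie below those of smooth muscle and renin-like cells at -0.33 and -0.41 and of gEC-like cells at -0.33 and -0.36.

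Among tested genes of the calmodulin pathway in mesangial-like cells, Camkk1 was called higher and Nrgn lower in DN mice at 12 weeks. The lower call of Camk2a supports nothing, as given below. The list was chosen with earlier results of these data known. A list of 29 genes for calmodulin, its regulators and its kinases had 23 tested. None passed at 6 weeks, where 0.187% of all genes were called higher and 0.0833% lower. At 12 weeks 1 was higher and 2 were lower in DN mice, with a median log2 difference of 0.02 against -0.00 over all genes, of which 2.12% were called higher and 0.885% lower. Nrgn (neurogranin), another small IQ-motif protein that holds calmodulin, was lower at 12 weeks, with a log2 difference of -1.46 ± 0.27 (adjusted p = 0.00505, edgeR), from 365 ± 98.7 to 128 ± 23.8 CPM. The other lower call, Camk2a, the alpha subunit of a calmodulin-dependent kinase, stood at 14.3 ± 2.85 CPM in control and 3.08 ± 1.78 CPM in DN mice. It reached the level of the filter on low counts (9.56 CPM) in 7 control and 0 DN libraries and so had to differ, and its call supports nothing. Camkk1, a kinase that activates other calmodulin kinases, rose by 1.27 ± 0.24 (adjusted p = 0.00636, edgeR), from 15.8 ± 3.66 to 37.5 ± 2.54 CPM. Among the most abundant members, the actin-binding Cald1 differed by 0.78 ± 0.22 (adjusted p = 0.0740, edgeR) and Mylk, the myosin light chain kinase, by -0.15 ± 0.19, and neither passed. With the replicate block 1 was higher and 1 lower of 24 at 6 weeks, and 4 were higher and 4 lower at 12 weeks, in fits that called 2.85% of all genes higher and 1.01% lower at 6 weeks and 7.63% and 4.44% at 12 weeks. Camk2a was among these 24 genes, and any call of it supports nothing. Pcp4l1 itself was not on the list.

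Of the metalloproteases and their inhibitors, 4 were called higher and none lower in DN mice at 12 weeks, where 204 of the 289 calls over all genes were also higher. The calls of Adamts12 and Timp4 among them support nothing, as given below. The list of 30 genes held members of the ADAM and ADAMTS families, their inhibitors, and Rhbdf1 and Rhbdf2, which belong to neither group. Of these, 19 were tested. At 6 weeks none passed, against 0.187% of all genes called higher and 0.0833% lower. The shares over all genes were 2.12% and 0.885% at 12 weeks. The medians of the list, with Adamts12 and Timp4 included, were 0.46 and 0.24 on the log2 scale, against -0.00 over all genes at both ages. Adamts9, a secreted protease of matrix proteoglycans, rose by 2.24 ± 0.32 at 12 weeks (adjusted p = 0.000817, edgeR), from 6.80 ± 2.24 to 32.8 ± 10.1 CPM. Adamts12, a secreted protease of the same family, rose by 2.18 ± 0.42 (adjusted p = 0.00675, edgeR), from 4.54 ± 3.24 to 22.8 ± 9.19 CPM. Adamts12 reached the filter level of 9.56 CPM in 2 control and 7 DN libraries of both ages. It was thus tested mainly through the group where it was high, and its call supports nothing. The 4 calls include Timp4, a secreted inhibitor of metalloproteases, with 2 UMIs in control and 95 in DN mice at 12 weeks and 0 in 1 DN library. It reached the filter level of 9.56 CPM in 1 control and 4 DN libraries of both ages, so that it was tested mainly through the group where it was high, and its call supports nothing. Reck, a membrane-anchored inhibitor, rose by 1.32 ± 0.31 (adjusted p = 0.0246, edgeR), from 26.6 ± 8.44 to 65.7 ± 14.2 CPM. The most abundant members were Adamts5, a mesangial marker, at -0.13 ± 0.19, the inhibitor Timp3 at 0.52 ± 0.21 (adjusted p = 0.297, edgeR) and the inhibitor Timp2 at 0.07 ± 0.17, none of which passed. With the replicate block 5 of 19 were higher at 6 weeks and 9 at 12 weeks, and none was lower. In these fits 2.85% and 7.63% of all genes were called higher. The 5 include Adamts12 and Timp4, which were also among the 19 genes at 12 weeks, and their calls support nothing. Adamdec1, which lies beside Adam28, was too low to test, with 27 UMIs in all. It stood at 1.98 ± 1.88 CPM in control and 0.466 ± 0.675 CPM in DN mice at 6 weeks and at 2.63 ± 2.73 and 0.250 ± 0.181 CPM at 12 weeks. The count of 4 at 12 weeks rested on single libraries, being 1 without control male 12 weeks replicate 1 or DN female 12 weeks replicate 2, and 2 without control male 12 weeks replicate 2 or DN male 12 weeks replicate 1.

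Of 9 listed substrates and partners of ADAM28, 5 were tested. None passed at 6 weeks, where 0.187% of all genes were called higher and 0.0833% lower. At 12 weeks, where the shares were 2.12% and 0.885%, the one that passed was Igfbp3. Igfbp3, which carries insulin-like growth factors and is a described substrate, had 0 UMIs in control mice at 12 weeks and 106 in DN mice. It reached the filter level of 9.56 CPM in 0 control and 4 DN libraries, so it had to differ, and the call supports nothing about the list. Its pooled DN level of 10.7 CPM was at least 16.8-fold higher than the level of 3 counts over the control group. Igfbp3 missed the threshold when control female 12 weeks replicate 2, either control male, DN female replicate 2 or DN male replicate 1 of that age was left out, and 0 genes of the list then passed. Ctgf, a matrix-associated growth regulator, differed by 0.42 ± 0.22, Itgb1, the beta1 integrin chain, by 0.47 ± 0.23, and Itga4, the alpha4 chain, by -0.57 ± 0.23 at 12 weeks (adjusted p = 0.532, 0.453 and 0.285, edgeR). The medians over the tested members, Igfbp3 included, were 0.32 at 6 and 0.47 at 12 weeks on the log2 scale, against -0.00 over all genes at both ages. With the replicate block 1 was higher and 1 lower at 6 weeks, and 4 were higher and 1 lower at 12 weeks. With this block the shares over all genes were 2.85% higher and 1.01% lower at 6 weeks, and 7.63% and 4.44% at 12 weeks. All 5 tested genes were thus called at 12 weeks, Igfbp3 among them, and its call supports nothing.

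**Figure D5:**
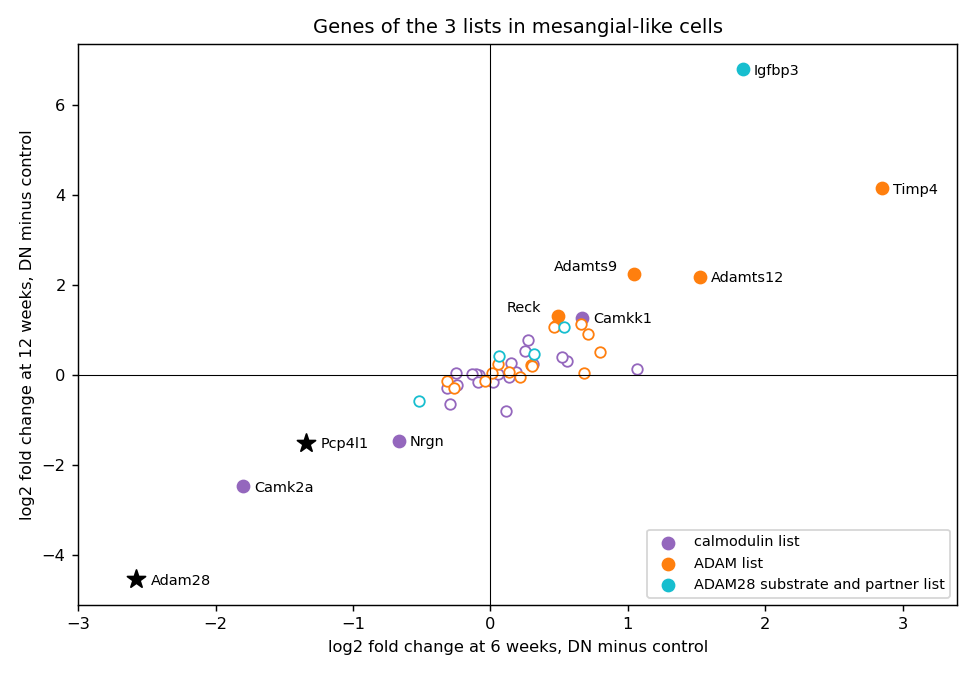
Log2 fold change in mesangial-like cells, DN minus control, at 6 weeks on the x axis and 12 weeks on the y axis, for the tested genes of the calmodulin, ADAM and ADAM28 substrate lists. Filled points passed the test at 12 weeks and stars mark Pcp4l1 and Adam28. The place of Igfbp3, with 0 control UMIs at 12 weeks, depends on the prior count. The filled ADAM-list points lie above 0 at 12 weeks, opposite to Adam28 at -4.54. Adamts12, Timp4, Igfbp3 and Camk2a were tested mainly through the group where they were high, so their filled points support nothing.

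Of the 12 genes nearest to Pcp4l1 and Adam28 on the chromosomes, 3 were high enough to test in mesangial-like cells. Of the 3 nearest annotated genes on each side of Pcp4l1, Sdhc, a subunit of the respiratory chain, and Tomm40l were tested, and neither passed. Sdhc differed by -0.08 ± 0.17 and 0.01 ± 0.16. Around Adam28 lie the protease genes Adamdec1 and Adam7, which were too low to test, Adam7 with 1 UMI in all. Stc1, 373396 bases away, was the only tested neighbour and did not pass, at 0.14 ± 0.75 and -0.96 ± 0.63 (adjusted p = 0.692 at 12 weeks, edgeR).

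Over the 16 mesangial-like sums the genes whose log2 CPM followed Pcp4l1 most closely were Blmh (r = 0.93), Rasl12 (0.93), Zmat4 (0.92), Dlgap1 (0.91) and Zfand5 (0.90). Those nearest to Adam28 were Svil (0.92), Abat (0.91), Pdgfc (0.90), Dlgap1 (0.89) and Erich4 (0.88). Dlgap1 was on both lists, with 89.5 ± 21.8 CPM in control and 28.0 ± 9.25 CPM in DN mice at 12 weeks. The libraries share the genotype difference that chose both genes. Over the mean levels of the 16 classes, Pcp4l1 was most like Ecm1 (r = 0.995), Ebf1 (0.985), Rem1 (0.984), Mcam (0.983) and Emid1 (0.981). Among the genes most like Adam28 were Gm33104 (0.961), Wdr66 (0.938), Apod (0.938) and Lbhd2 (0.934), all at under 10 CPM in mesangial-like cells. The class means share their libraries and the correlations are descriptions.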

How the data were processed

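Kidney cells of 16 mice were captured by droplet 3' sequencing. The authors aligned reads to mm10 with Cell Ranger 3.0.2, and the deposited matrices hold UMI counts per gene and barcode (per the labels), not normalized. Whether counting used strand is not given in the sources used here. Barcodes entered with 200 to 7000 genes and no more than 50% mitochondrial UMIs (94436). No doublet caller was run; 7466 cells (7.91%) with markers of different lineages and 831 non-tubular cells over 20% mitochondrial were removed. Cells were aligned and clustered (Leiden) without Pcp4l1, Adam28 and the listed genes, and clusters were named by markers. The naming thresholds were set after the clusters were seen, and both genes and all lists were chosen with earlier results of these data known. Counts were summed per library and class (at least 10 cells) and fitted with edgeR 4.0.16 (TMM, quasi-likelihood, filter on low counts). The terms were age, sex within age and genotype within age, without pairing. The sex difference of the DN effect used a mean per group of sex, age and genotype. DESeq2 1.42.0 was an alternative. The fits were tested on simulated data. Named genes were Pcp4l1, Adam28, list genes that passed or were the 3 most abundant of a list, and the 5 most correlated genes; 2 genes that this rule names are not reported here. Replicate numbers were taken as pairing samples only in the replicate block, an alternative fit. The reason was that deviations of same-numbered DN and control libraries correlated at 0.26 to 0.49 in all 8 pairs. The 2 pairs of each sex and age share a value by construction, and the female pairs coincide with the barcode lists. In sums over cells, fewer cells with the RNA and less RNA per cell cannot be told apart.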

Additional observations from a re-analysis of the deposited data

Results flagged for a closer look

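A cluster left out of the comparisons of the report, other than in 1 alternative, also held both genes. Its 452 cells carried mesangial and glomerular EC markers together, and it stayed unnamed. In its 248 control cells Pcp4l1 was pooled at 511 CPM and Adam28 at 10.4 CPM (45 UMIs), above the limits that a count of 0 allows (0.691 CPM). In its 204 DN cells Pcp4l1 stood at 303 CPM and Adam28 at 1.04 CPM (4 UMIs), against a limit of 0.780 CPM. What these cells were was not tested. No library stood apart from its group by Dixon's criterion in 22 groups of 4 libraries, where chance would flag about 1 in 20.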

How the results depend on the processing

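Of 1087 values recomputed under other settings, 986 kept their direction and their side of the threshold or their size, 69 moved in size or changed side, and 32 changed sign, none of the last past the threshold. Calls over all genes, 26 at 6 and 289 at 12 weeks in the main fit, were 100 with DESeq2 (6 weeks), 222 and 591 without a filter on low counts, 383 and 1201 with the replicate block, 134 and 568 with a term for the barcode list, 56 within the larger barcode list (6 weeks), 0 and 116 in cells taken by markers, and 4 at 6 weeks with the unnamed mesangial and glomerular EC cluster added, an alternative chosen after seeing the data. Leaving out 1 library gave 2 (without control male 6 weeks replicate 1) to 48 (without DN female 6 weeks replicate 1) at 6 weeks and 136 (without either control male of 12 weeks) to 326 at 12 weeks. The ADAM list had 1 call at 6 weeks with DESeq2, 3 without a filter, 5 with the block, 3 with the barcode term, 1 within the larger list and 0 to 1 leaving out a library; at 12 weeks it had 7 without a filter, 9 with the block, 7 with the barcode term, 7 within the larger list, 2 in cells taken by markers and 1 to 6 leaving out a library. The calmodulin list had 2 at 6 weeks with the block, and at 12 weeks 6 with DESeq2, 8 with the block, 7 with the barcode term, 5 within the larger list and 2 to 4 leaving out a library. The substrate list had 2 at 6 weeks with the block, and at 12 weeks 2 without a filter, 5 with the block, 4 with the barcode term, 2 within the larger list, 0 to 1 leaving out a library, and 0 at no more than 10% mitochondrial counts, in cells taken by markers and with the unnamed cluster. All these list counts kept Adamts12, Timp4, Camk2a and Igfbp3 in where they were tested, and calls of these genes support nothing. In cells taken by markers, which include smooth muscle cells, Pcp4l1 was -0.79 and -1.29 and Adam28 -1.998 at 6 weeks. Leaving out a library moved Adam28 at 12 weeks between -5.12 and -4.25 and Pcp4l1 between -1.57 and -1.46. The replicate block took Pcp4l1 in smooth muscle and renin-like cells at 12 weeks past the threshold (-0.40) and changed no other single-gene call reported for Pcp4l1 or Adam28. Values that changed sign, none of them called, are given with their ranges. For Pcp4l1 at 6 weeks in immune-like cells (-0.01) they were 0.050 without TMM, 0.087 without a filter, 0.074 with the block, 0.030 with the barcode term, 0.31 within the larger list and -0.40 to 0.58 leaving out a library, and at 12 weeks -4.09 to 0.24 leaving out a library. In arterial EC-like cells they were -0.065 at 6 and 0.087 at 12 weeks within the larger list, and -0.14 to 0.32 and -0.15 to 0.073 leaving out a library. In mitotic cells they were -0.027 with the barcode term at 6 weeks, and -1.19 to 1.05 and -0.97 to 0.44 leaving out a library. In peritubular and venous EC-like cells leaving out a library gave -0.11 to 0.24. In mesangial-like cells the age difference of Pcp4l1 was -0.087 in control mice in cells taken by markers and -0.26 to 0.059 in DN mice leaving out a library, and the sex difference of the DN effect on Adam28 was 0.39 with cross-lineage cells kept, -2.65 within the larger list and -2.46 to 0.18 leaving out a library. Thinned to 2000 UMIs, the shares with Pcp4l1 in control and DN mice were 85.4% and 78.7% (smooth muscle and renin-like), 62.9% and 33.3% (mesangial-like), 33.2% and 31.0% (gEC-like), 26.9% and 23.5% (arterial EC-like) and 22.2% and 23.1% (peritubular and venous EC-like). The causes were not tested, beyond that thinning to more UMIs reads more of each cell. Depth limits Adam28, with 0 to 37 UMIs per library in mesangial-like cells.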
